A study of Mus musculus with 16 samples.

Results

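Semaphorins, plexins, neuropilins, ephrins, Eph receptors, Slits and Robos are the ligand and receptor families that steer axons, and 60 of the 24411 gene symbols in the count and TPM tables belonged to them. They were taken by symbol alone, as Sema3 to Sema7 with a letter, Plxna to Plxnd with a digit, Nrp1 and Nrp2, Epha, Ephb, Efna and Efnb with a number, Slit1 to Slit3 and Robo1 to Robo4. Of the 60 genes, 58 had a mean above 1 TPM (transcript abundance scaled for transcript length and library depth) in at least 1 condition and were tested, and Efna4 and Robo3 were not. Class 3 semaphorins are secreted and bind a receptor made of a neuropilin and a plexin, whereas most semaphorins of the other classes are held at the membrane and bind plexins directly. Ephrins are membrane ligands for Eph receptor tyrosine kinases, ephrin-A by a lipid anchor and ephrin-B by a transmembrane segment, and both partners can signal into the cell that carries them. Slits are secreted proteins that repel axons through Robo receptors, and in the injured cord semaphorins, ephrins and Slits are known as cues made by scar-forming cells, glia and neurons.

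The libraries were made from a 5 mm piece of spinal cord of each of 16 female C57BL/6J mice, by stranded total RNA-seq. SCI + Atorvastatin (n = 7) and SCI + Vehicle (n = 7) mice received a 0.25 mm lateral compression of the thoracic cord at 12 weeks of age, then daily injections for 4 weeks starting 2 weeks after injury, and cords were taken 6 weeks after injury. Atorvastatin, a cholesterol-lowering statin, was given at 10 mg/kg in 2% dimethyl sulfoxide, 35% polyethylene glycol 400, 2% Tween 80 and 61% saline, which was also what SCI + Vehicle mice received. Uninjured Control mice (n = 2) had neither injury nor injections, and the labels give 12 weeks as their age at baseline. By the study's methods their cords were taken at a younger age than the injured ones. Surgery, vehicle, age and injury therefore cannot be told apart in a comparison with them.

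Injured libraries held 14823292 to 25579826 counts and Uninjured Control libraries 20211276 and 22368736, yet the control libraries had counts for 12732 and 12356 genes against 16399 to 19338 in the injured ones. Of the genes tested, 21.8% and 24.1% had a count of 0 in the control libraries, against 2.57% to 5.76% in the injured ones. Liver transcripts (10 genes such as Alb) summed to 1333 and 7562 TPM in the controls and to 1.80 to 16.0 TPM in injured mice. Neuronal markers (12 genes) summed to 9923 and 12562 TPM in the controls and 6198 to 10058 TPM after injury, and none of the 12 was at 0 in any mouse. Guidance genes took 0.293% and 0.294% of all counts in the controls and 0.295% to 0.356% in injured mice. In whole cord, a lower level can come from fewer cells of a type or from less RNA per cell, which these data do not separate.

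Promoters of 4 members are shown: Sema3d, Sema4c and Plxnb2 were called higher and Sema5a lower in both injured groups by the main test given below. All 4 had counts in both control mice, and none was called by the voom fit given below. Each line gives the 250 bases before a RefSeq start site on the GRCm38.p6 build, on the strand of the gene. The window of Sema3d lies at chr5:12382916-12383165 on the plus strand, that of Sema4c at chr1:36558382-36558631 on the minus strand, that of Plxnb2 at chr15:89180789-89181038 on the minus strand and that of Sema5a at chr15:32244563-32244812 on the plus strand. Capitals mark GC boxes (GGGCGG, or CCGCCC on the other strand), the short motif bound by Sp1-type factors, and runs of capitals longer than that are overlapping matches.
Sema3d: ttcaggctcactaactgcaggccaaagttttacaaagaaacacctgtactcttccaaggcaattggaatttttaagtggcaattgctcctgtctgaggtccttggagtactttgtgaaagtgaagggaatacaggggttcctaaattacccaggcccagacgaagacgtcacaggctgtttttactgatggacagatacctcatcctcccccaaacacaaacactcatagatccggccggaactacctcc
Sema4c: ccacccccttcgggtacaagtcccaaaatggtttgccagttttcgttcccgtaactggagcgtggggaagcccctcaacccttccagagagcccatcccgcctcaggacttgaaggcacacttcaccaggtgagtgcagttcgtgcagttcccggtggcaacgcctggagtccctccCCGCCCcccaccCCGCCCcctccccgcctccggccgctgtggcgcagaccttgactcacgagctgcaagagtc
Plxnb2: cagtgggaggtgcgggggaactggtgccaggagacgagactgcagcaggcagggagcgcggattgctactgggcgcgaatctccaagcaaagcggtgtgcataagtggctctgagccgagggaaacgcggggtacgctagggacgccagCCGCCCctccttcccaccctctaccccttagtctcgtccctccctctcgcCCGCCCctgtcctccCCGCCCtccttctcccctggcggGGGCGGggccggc
Sema5a: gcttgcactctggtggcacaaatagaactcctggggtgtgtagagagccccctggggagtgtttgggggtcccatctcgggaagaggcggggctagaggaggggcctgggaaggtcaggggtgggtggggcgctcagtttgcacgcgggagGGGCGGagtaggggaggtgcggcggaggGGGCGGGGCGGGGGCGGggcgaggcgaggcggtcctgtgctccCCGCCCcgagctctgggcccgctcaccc
Sema3d had 0 GC boxes, Sema4c 2, Plxnb2 4 and Sema5a 5. The table of promoters held 69 windows for 53 of the 60 genes, and 71.0% of those windows contained a GC box, compared with 32.7% of all 32851 windows. CpG dinucleotides numbered 4 in the window of Sema3d, 15 in Sema4c, 20 in Plxnb2 and 17 in Sema5a, beside a median of 15 over the windows of the guidance genes and 6 over all windows. A match describes the letters only.

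The most abundant guidance gene of the injured cord was Sema6d, a transmembrane semaphorin, at 98.2 ± 10.1 TPM (SD, n = 7) in SCI + Vehicle and 107 ± 9.66 TPM (SD, n = 7) in SCI + Atorvastatin mice. TPM is scaled for transcript length, so it allows levels to be set side by side between genes. Efnb3, an ephrin-B ligand, was next at 94.7 ± 8.28 TPM (SD, n = 7) in SCI + Vehicle and was the highest of all in the controls, at 113 and 122 TPM. Among receptors, Plxnb2 led with 71.5 ± 13.2 TPM (SD, n = 7) in SCI + Vehicle and 83.6 ± 5.55 TPM (SD, n = 7) in SCI + Atorvastatin mice, and its control values were 31.8 and 43.6 TPM. Levels thus ran from over 50 TPM for 5 genes in SCI + Vehicle, 7 in SCI + Atorvastatin and 4 in Uninjured Control mice down to at most 1 TPM for 3, 3 and 4 genes.

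Each family had a leading gene, which held most of its sum in some families and a small part in others. Efnb3 made up 85.2% ± 3.73 (SD, n = 7) of the ephrin-B sum in SCI + Vehicle and 79.3% ± 2.19 (SD, n = 7) in SCI + Atorvastatin mice. Efna3 led the ephrin-A genes with 25.6 ± 14.6 TPM (SD, n = 7) in SCI + Vehicle, and Sema3c the class 3 semaphorins with 38.3 ± 3.96 TPM (SD, n = 7). Robo1, at 42.3 ± 3.53 TPM (SD, n = 7), was the most abundant Robo, and Slit1, at 20.2 ± 5.24 TPM (SD, n = 7), the most abundant Slit of SCI + Vehicle mice. Several neighbours in these orders differed by less than their spread: Nrp2 and Nrp1 stood at 46.9 ± 7.84 and 43.5 ± 8.40 TPM (SD, n = 7) in SCI + Vehicle mice. Epha10 and Epha4 likewise stood at 21.7 ± 5.83 and 21.1 ± 3.59 TPM (SD, n = 7), and Ephb1 led the EphB receptors at 45.4 ± 7.30 TPM (SD, n = 7). At the low end, Efna4 had 0 to 42 counts in the 14 injured mice and 0 in both controls, which allows up to 3 counts there, and Robo3 had 5 to 108 counts in injured mice. The plot of mean TPM by family shows these orders in the 3 groups.

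**Figure D1:**
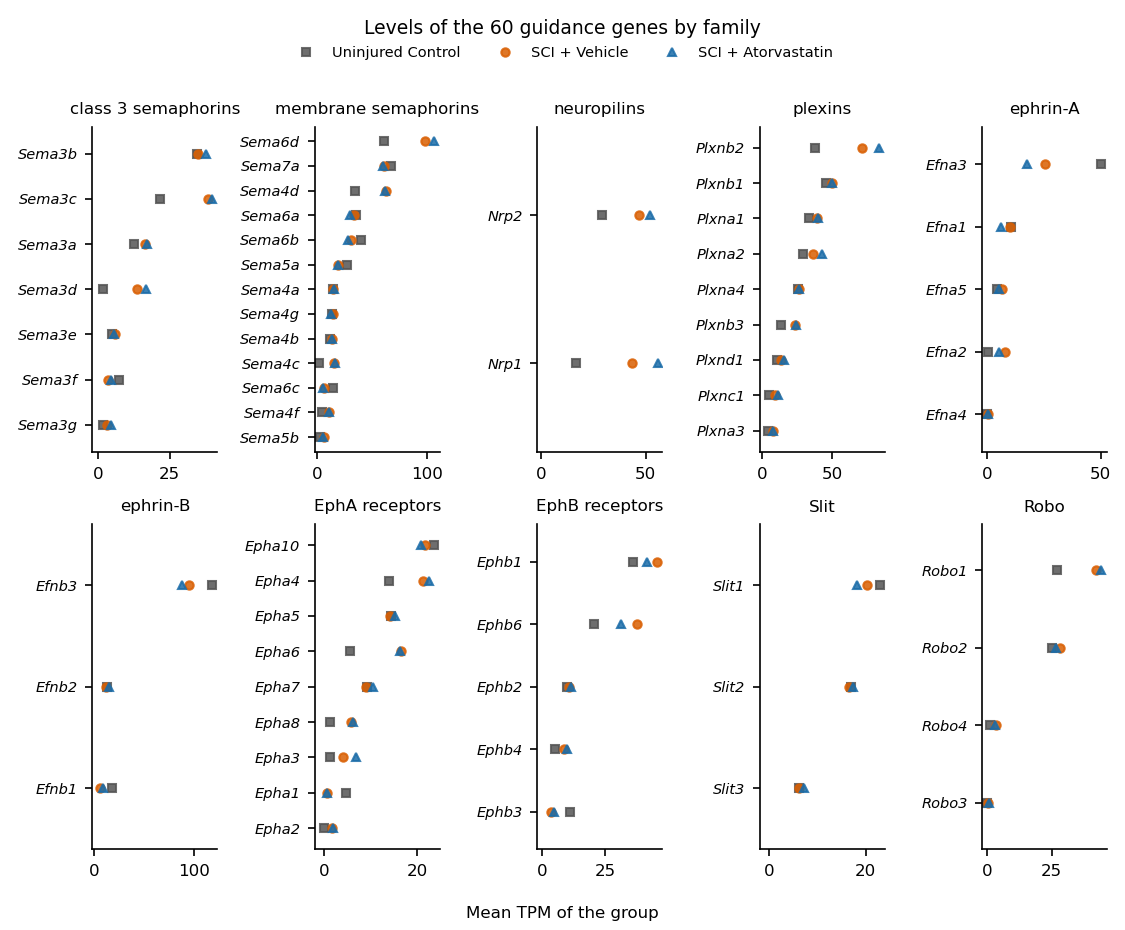
Mean TPM of each of the 60 guidance genes on the x axis, in a panel for each family, with genes ordered by their mean over the 3 groups; squares are Uninjured Control (n = 2), circles SCI + Vehicle (n = 7) and triangles SCI + Atorvastatin (n = 7). Sema6d, Efnb3 and Plxnb2 reach the highest values of the injured groups, and several control squares stand apart from the injured points.

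The spread among injured mice varied by gene. The coefficient of variation of the normalised count had a median of 19.5% over the tested genes in SCI + Vehicle and 15.2% in SCI + Atorvastatin mice. It was lowest for Robo2 (4.59%), Efnb3 (5.80%) and Robo1 (6.05%) in SCI + Vehicle, and for Efnb3 (5.199%), Nrp2 (5.43%) and Sema6d (5.84%) in SCI + Atorvastatin mice. It was below 15% for 24 and 27 of the 58 genes, and above 40% stood 8 genes in SCI + Vehicle, with Robo4 at 70.8% and Epha1 at 61.4%, and 2 in SCI + Atorvastatin mice, Epha2 at 53.6% and Epha3 at 47.8%. SCI + Vehicle replicate 7 was the lowest of the 14 injured mice for 16 of the 58 tested genes, and SCI + Vehicle replicate 4, the library with the fewest counts, was the highest for 13.

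The comparison of each injured group with Uninjured Control asked which guidance genes differ 6 weeks after injury. Genes were called differentially expressed (DEGs) where edgeR's quasi-likelihood test gave a Benjamini-Hochberg adjusted p below 0.05 and a log2 fold change beyond 0.322 in either direction. In SCI + Vehicle vs. Uninjured Control, 14 of 58 guidance genes were DEGs (24.1%), beside 29.8% of all 16091 genes tested. Of these, 10 were upregulated (19.9% of all genes were) and 4 downregulated (9.91% of all genes were). SCI + Atorvastatin vs. Uninjured Control gave 21 of 58 (36.2%), beside 38.9% of all genes, with 14 upregulated (24.9% of all genes) and 7 downregulated (14.0% of all genes). These shares lie near those of the whole table. Median log2 fold changes were 0.15 for the guidance genes and 0.17 for all genes in SCI + Vehicle, and 0.23 and 0.21 in SCI + Atorvastatin mice.

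All 14 DEGs of SCI + Vehicle were also DEGs of SCI + Atorvastatin, in a comparison that shares the same 2 control mice. Of the 14, Efna2 and Epha2 passed the TPM filter through the injured groups alone. The 7 others of SCI + Atorvastatin were Nrp2, Plxna2, Sema3c and Sema6d, upregulated, and Efna3, Ephb3 and Sema6b, downregulated. That list depends on the tool: DESeq2 called 17 members in SCI + Vehicle, Nrp2, Sema3c and Sema6d among them, and the fit of all 3 groups and limma on TPM called Ephb3 there as well. The ranges of injured and control mice did not overlap for 17 genes in SCI + Vehicle (35.6% of all genes tested) and for 24 in SCI + Atorvastatin (44.0% of all genes). With only 2 control mice the counts of DEGs depended on single libraries. The 10 upregulated genes of SCI + Vehicle became 4 to 6 when any of replicates 1 to 7 of that group was left out. In those fits 13.8% to 17.2% of guidance genes were DEGs, beside 23.9% to 29.9% of all genes. Without Uninjured Control replicate 1 or 2 the median log2 fold change was 0.36 or 0.17 for the guidance genes, beside 0.34 or 0.31 for all genes. In SCI + Atorvastatin these medians were 0.48 or 0.16 for the guidance genes, beside 0.37 or 0.33 for all genes. A voom fit that gave each group its own weight, so that the spread of the controls counted for more, called 0 of 58 in each comparison. It called 131 and 145 of 16091 genes in all. In that fit 7 and 8 guidance genes had an unadjusted p below 0.05, beside 1375 and 1795 of all 16091 genes.

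**Figure D2:**
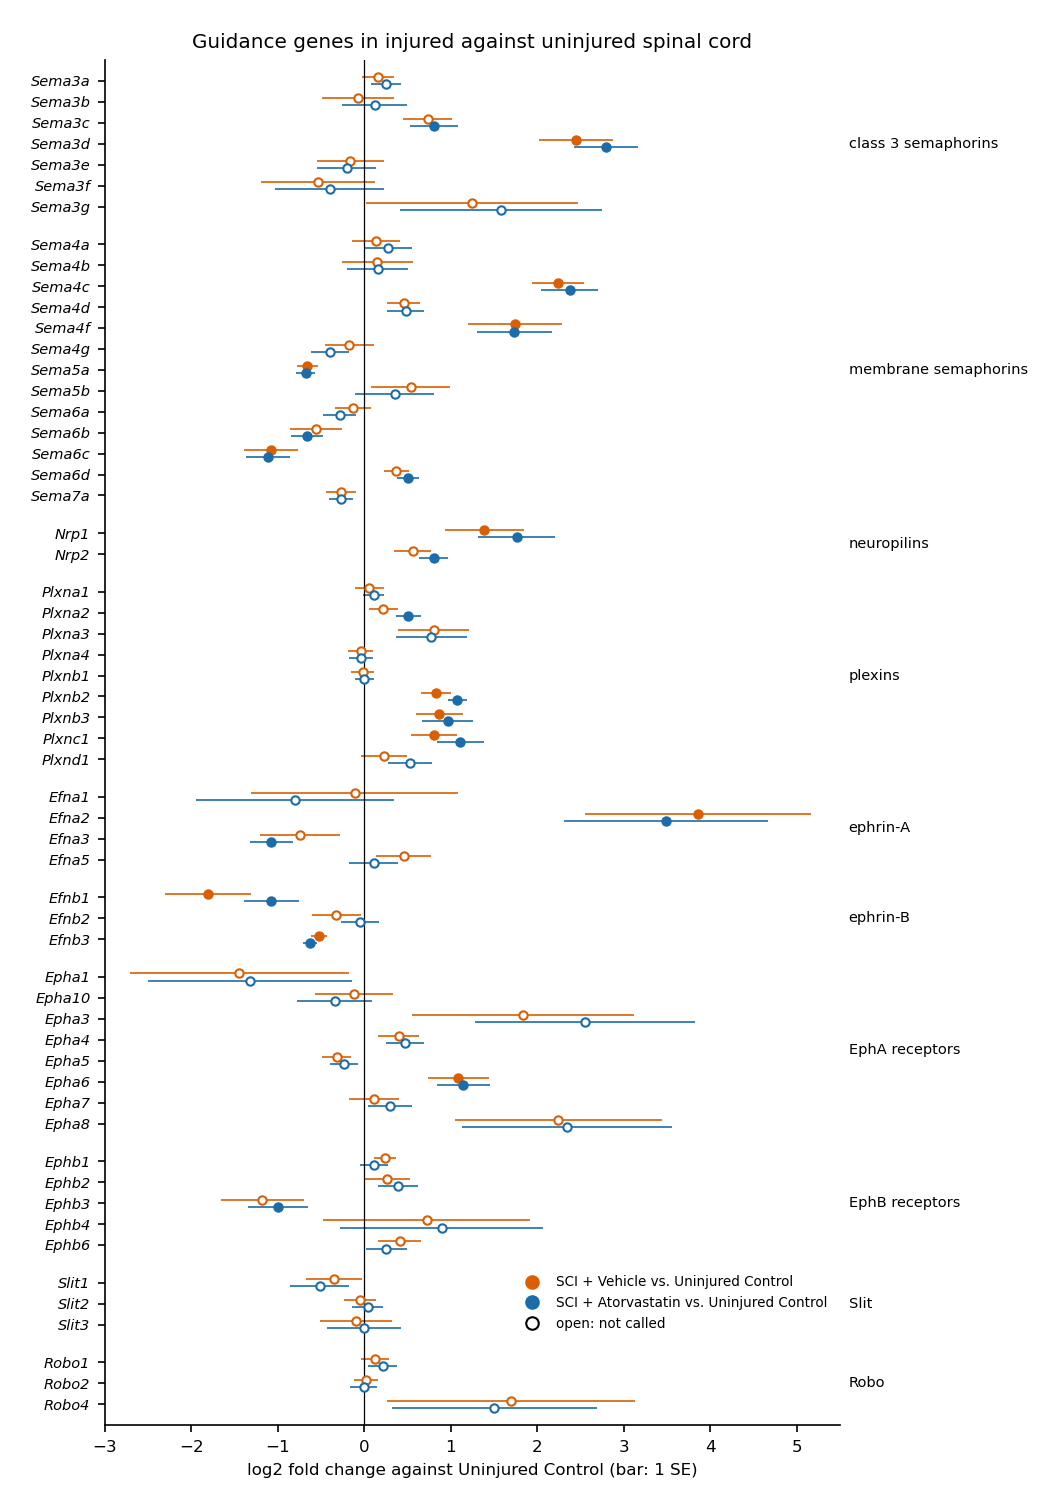
Log2 fold change against Uninjured Control of 57 tested guidance genes, grouped by family, with bars of 1 SE; orange is SCI + Vehicle, blue SCI + Atorvastatin, filled points are DEGs and open points are not. Epha2, with a count of 0 in both controls, is left out. Efna2, Sema3d and Sema4c lie farthest to the right among the DEGs in both groups, Efnb1 in SCI + Vehicle lies farthest to the left and Slit and Robo genes are all open.

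Among the secreted class 3 semaphorins, Sema3d (chr5:12383385-12588948 on GRCm38, GENCODE M21) had the smallest adjusted p. Its normalised count (CPM, the count per library size after TMM scaling) was 8.84 and 4.08 in the 2 controls, against 21.2 to 46.4 (median 38.3) in SCI + Vehicle and 29.5 to 59.1 (median 45.3) in SCI + Atorvastatin mice. Every injured mouse was above both controls. The log2 fold change was 2.45 ± 0.43 (SE, adjusted p = 0.00201) in SCI + Vehicle and 2.80 ± 0.37 (SE, adjusted p = 0.000273) in SCI + Atorvastatin, the 5.47-fold and 6.94-fold higher levels. Sema3c, which in many settings attracts rather than repels axons, counted 25.3 and 66.5 CPM in the controls, 70.7 to 87.6 (median 76.4) in SCI + Vehicle and 72.4 to 90.1 (median 77.3) in SCI + Atorvastatin mice. No injured mouse overlapped the controls, but the controls lay over 2-fold apart. Its change was 0.80 ± 0.28 (SE, adjusted p = 0.0443) in SCI + Atorvastatin and missed the threshold in SCI + Vehicle at 0.73 ± 0.29 (SE, adjusted p = 0.0782). The call in SCI + Atorvastatin was lost without any single mouse of that group, without Uninjured Control replicate 1, with DESeq2 size factors and with the filter on every condition. Without control replicates 1 and 2 the change there was 0.27 and 1.65. Sema3a, the founding repellent of the class, had log2 fold changes of 0.16 ± 0.18 and 0.25 ± 0.17 (SE), and neither it nor Sema3b, Sema3e, Sema3f or Sema3g was a DEG.

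Of 13 membrane semaphorins, 2 were upregulated and 2 downregulated in SCI + Vehicle, beside 19.9% and 9.91% of all genes. In SCI + Atorvastatin mice 3 and 3 were, beside 24.9% and 14.0% of all genes. Sema4c (chr1:36548639-36558349), a ligand of plexin-B2, counted 6.98 and 4.30 CPM in the controls, 22.5 to 30.2 (median 27.1) in SCI + Vehicle and 19.8 to 35.4 (median 31.7) in SCI + Atorvastatin mice. Both injured groups were clear of the controls. Sema4c had the smallest adjusted p of all guidance genes in SCI + Vehicle, with a log2 fold change of 2.24 ± 0.30 (SE, adjusted p = 0.000463), and of 2.37 ± 0.33 (SE, adjusted p = 0.000353) in SCI + Atorvastatin. Its 95 counts in the second control came with a TPM of 0, so counts and TPM went apart there. Sema4f (chr6:82911885-82939769) counted 2.81 and 7.61 CPM in the controls, 7.10 to 25.9 (median 18.4) in SCI + Vehicle and 12.5 to 23.0 (median 16.3) in SCI + Atorvastatin mice. A single SCI + Vehicle mouse fell below the higher control. The change was 1.74 ± 0.54 (SE, adjusted p = 0.0338) and 1.73 ± 0.44 (SE, adjusted p = 0.0103), and in SCI + Vehicle the call was lost without any of replicates 2 to 7, without Uninjured Control replicate 1 and under limma on both TPM scales. The change was 1.21 without control replicate 1 and 2.64 without replicate 2 in SCI + Vehicle, and 1.19 and 2.61 in SCI + Atorvastatin.

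Sema6d (chr2:124089969-124667770), a plexin-A1 ligand, counted 165 and 229 CPM in the controls, 228 to 288 (median 254) in SCI + Vehicle and 255 to 295 (median 281) in SCI + Atorvastatin mice. Only the SCI + Atorvastatin range was clear of the controls. It was a DEG there at 0.50 ± 0.12 (SE, adjusted p = 0.00863), a call lost at 0.29 without Uninjured Control replicate 1 (0.75 without replicate 2), and not in SCI + Vehicle at 0.37 ± 0.15 (SE, adjusted p = 0.0778). Sema5a (chr15:32244810-32696341), a transmembrane semaphorin with thrombospondin repeats, went down. Controls agreed closely at 133 and 136 CPM, and injured mice ranged from 74.2 to 96.0 (median 84.3) in SCI + Vehicle and 70.1 to 91.7 (median 86.6) in SCI + Atorvastatin. All 14 injured mice were lower than both controls, by a log2 fold change of -0.66 ± 0.12 (SE, adjusted p = 0.00247) and -0.68 ± 0.11 (SE, adjusted p = 0.00103). On log2(TPM + 1) with limma the fall of Sema5a kept its direction and was no longer called in either comparison.

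Sema6c (chr3:95160457-95174024) counted 24.1 and 30.3 CPM in the controls, 8.82 to 16.9 (median 13.1) in SCI + Vehicle and 9.28 to 16.0 (median 12.6) in SCI + Atorvastatin mice. Here too no injured mouse reached a control. Log2 fold changes were -1.08 ± 0.32 (SE, adjusted p = 0.0262) and -1.12 ± 0.26 (SE, adjusted p = 0.00667). Its relative Sema6b (chr17:56123085-56140343) counted 65.1 and 84.2 CPM in the controls, 22.9 to 64.6 (median 55.4) in SCI + Vehicle and 33.1 to 53.2 (median 49.3) in SCI + Atorvastatin mice. The SCI + Vehicle range came up to just below the lower control. It was a DEG in SCI + Atorvastatin at -0.67 ± 0.18 (SE, adjusted p = 0.0150), a call lost without Uninjured Control replicate 2 and under limma on both TPM scales, but not in SCI + Vehicle at -0.56 ± 0.30 (SE, adjusted p = 0.182). The abundant Sema4d and Sema7a, which signal to B-type plexins and to plexin-C1 or integrins, were not DEGs in either group, though limma on TPM called Sema4d higher in both.

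Neuropilins are the co-receptors that let class 3 semaphorins reach their plexins, and they also bind VEGF. In SCI + Vehicle 1 of the 2 genes was upregulated and in SCI + Atorvastatin both, beside 19.9% and 24.9% of all genes. Nrp1 (chr8:128358604-128503363) counted 15.1 and 67.7 CPM in the controls, 79.0 to 132 (median 116) in SCI + Vehicle and 109.7 to 174 (median 133) in SCI + Atorvastatin mice. Every injured mouse was above both controls, which themselves lay over 2-fold apart. Its log2 fold change was 1.38 ± 0.46 (SE, adjusted p = 0.0425) in SCI + Vehicle and 1.76 ± 0.45 (SE, adjusted p = 0.0105) in SCI + Atorvastatin. The SCI + Vehicle call was lost without any of replicates 1 to 6. Its size rested on the controls, at 0.68 and 1.05 without control replicate 1 and 2.85 and 3.21 without replicate 2. Nrp2 (chr1:62703285-62818695) counted 51.7 and 86.6 CPM in the controls, 75.3 to 116 (median 106) in SCI + Vehicle and 109.8 to 129 (median 120.2) in SCI + Atorvastatin mice. In SCI + Vehicle 1 mouse fell between the controls, and in SCI + Atorvastatin none did. The change was 0.80 ± 0.17 (SE, adjusted p = 0.00382) in SCI + Atorvastatin and 0.56 ± 0.21 (SE, adjusted p = 0.0726) in SCI + Vehicle. In SCI + Atorvastatin it was 0.48 and 1.21 without control replicates 1 and 2.

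Of 9 plexins, the large semaphorin receptors that act on small GTPases, 3 were upregulated in SCI + Vehicle, 4 in SCI + Atorvastatin and none in either was downregulated. Of all genes, 19.9% and 24.9% were upregulated and 9.91% and 14.0% downregulated. Plxnb2 (chr15:89155549-89180788), found on microglia, astrocytes and neural progenitors, counted 99.1 and 111 CPM in the controls, 146 to 237 (median 190.1) in SCI + Vehicle and 194 to 251 (median 214) in SCI + Atorvastatin mice. The groups did not overlap. Its log2 fold change was 0.83 ± 0.18 (SE, adjusted p = 0.00571) in SCI + Vehicle and 1.08 ± 0.11 (SE, adjusted p = 7.65e-05) in SCI + Atorvastatin, the latter the smallest adjusted p of the guidance genes in that comparison. Plxnb3 (chrX:73757090-73772514), a plexin of oligodendrocytes, counted 54.1 and 23.4 CPM in the controls, 61.1 to 88.6 (median 68.7) in SCI + Vehicle and 60.6 to 102 (median 74.1) in SCI + Atorvastatin mice. All injured mice were higher than both controls, and the change was 0.87 ± 0.27 (SE, adjusted p = 0.0356) and 0.96 ± 0.29 (SE, adjusted p = 0.0255). The SCI + Vehicle call was lost without any single mouse of that group, and under limma on both TPM scales, and both calls were lost without Uninjured Control replicate 2. Over the fits without 1 control Plxnb3 ranged from 0.38 to 1.59 in SCI + Vehicle and from 0.47 to 1.69 in SCI + Atorvastatin.

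Plxnc1 (chr10:94790866-94944835), a receptor of Sema7a, counted 23.3 and 11.7 CPM in the controls, 26.7 to 33.6 (median 31.7) in SCI + Vehicle and 31.7 to 45.2 (median 35.4) in SCI + Atorvastatin mice. Injured and control mice did not overlap. The change was 0.81 ± 0.27 (SE, adjusted p = 0.0453) in SCI + Vehicle, and 1.11 ± 0.27 (SE, adjusted p = 0.00890) in SCI + Atorvastatin. The SCI + Vehicle call was lost without any single mouse of that group, without Uninjured Control replicate 2, with DESeq2 size factors, without the TPM filter and with both stricter filters. Leaving out a control gave 0.39 to 1.38 in SCI + Vehicle and 0.69 to 1.69 in SCI + Atorvastatin. Plxna2 (chr1:194618218-194816869), a partner of neuropilins, counted 142 and 157 CPM in the controls, 132 to 200.3 (median 188) in SCI + Vehicle and 171 to 256 (median 209.9) in SCI + Atorvastatin mice. Only the SCI + Atorvastatin mice were all above the controls, with a change of 0.51 ± 0.15 (SE, adjusted p = 0.0190), and SCI + Vehicle gave 0.22 ± 0.17 (SE, adjusted p = 0.360). Plxnb1, among the most abundant plexins, had log2 fold changes of -0.02 ± 0.13 and -0.0022 ± 0.11 (SE), and Plxna1, Plxna3, Plxna4 and Plxnd1 were not DEGs.

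Of 3 ephrin-B ligands 2 were downregulated in both groups, beside 9.91% of all genes in SCI + Vehicle and 14.0% in SCI + Atorvastatin. Efnb3 (chr11:69554092-69560205) counted 174 and 186 CPM in the controls, 117 to 138 (median 126) in SCI + Vehicle and 109 to 127 (median 114) in SCI + Atorvastatin mice. No injured mouse came near a control, and the log2 fold change was -0.52 ± 0.10 (SE, adjusted p = 0.00273) and -0.63 ± 0.08 (SE, adjusted p = 0.000277). On log2(TPM + 1) with limma it was no longer called in SCI + Vehicle. Efnb1 (chrX:99136130-99148991) counted 21.8 and 24.5 CPM in the controls, 2.38 to 9.53 (median 6.34) in SCI + Vehicle and 7.83 to 16.4 (median 9.27) in SCI + Atorvastatin mice. Its fall was the steepest of the family, with log2 fold changes of -1.81 ± 0.50 (SE, adjusted p = 0.0200) and -1.08 ± 0.32 (SE, adjusted p = 0.0231), or 3.51-fold and 2.11-fold lower levels. Efnb2, known from arteries and astrocytes, had -0.33 ± 0.29 and -0.05 ± 0.22 (SE) and was not a DEG.

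Ephrin-A ligands did not move together. Efna2 (chr10:80179482-80190010) had 18 counts in 1 control and 0 in the other, 2.79 to 11.4 CPM (median 6.62) in SCI + Vehicle and 2.43 to 7.18 CPM (median 4.84) in SCI + Atorvastatin mice. All injured mice were above both controls, and it was a DEG at 3.86 ± 1.31 and 3.49 ± 1.18 (SE), values that rest on those few control counts. At 0.96 and 0 TPM in the controls, Efna2 passed the TPM filter through the injured groups alone. The filter thus chose it by the difference under test. Both calls were lost when any single injured mouse of the group was left out, and that in SCI + Vehicle also without the TPM filter. Efna3 (chr3:89313899-89322965) counted 24.2 and 17.9 CPM in the controls, 5.77 to 24.5 (median 12.0) in SCI + Vehicle and 8.41 to 10.9 (median 9.78) in SCI + Atorvastatin mice. In SCI + Vehicle 6 of 7 mice were below both controls and replicate 7 was above them, and SCI + Atorvastatin mice were all below them. Efna3 was a DEG in SCI + Atorvastatin at -1.07 ± 0.25 (SE, adjusted p = 0.00659), while SCI + Vehicle gave -0.74 ± 0.46 (SE, adjusted p = 0.255). Efna1 and Efna5 were not DEGs.

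Of 9 EphA receptors 2 were upregulated in both groups, near the 19.9% of all genes in SCI + Vehicle and 24.9% in SCI + Atorvastatin. Epha6 (chr16:59653483-60605531), a receptor of neurons, counted 7.88 and 18.1 CPM in the controls, 21.9 to 40.3 (median 27.4) in SCI + Vehicle and 22.7 to 32.0 (median 28.9) in SCI + Atorvastatin mice. Every injured mouse was above the controls, which lay over 2-fold apart. The change was 1.09 ± 0.36 (SE, adjusted p = 0.0413) and 1.14 ± 0.31 (SE, adjusted p = 0.0144), and in SCI + Vehicle it was lost without replicate 1, 2, 4, 5, 6 or 7 of that group or without Uninjured Control replicate 1. Without control replicates 1 and 2 the change was 0.61 and 1.81 in SCI + Vehicle and 0.67 and 1.86 in SCI + Atorvastatin. Epha2 (chr4:141301240-141329384), an epithelial and endothelial receptor, had a count of 0 in both controls and 16 to 156 counts in the injured mice. Taking 3 counts per control library as the floor, its level was 15.1-fold higher in SCI + Vehicle and 21.7-fold higher in SCI + Atorvastatin mice. These folds hold only as far as that floor does, since 15.1% of all genes tested were at 0 in both controls. At 0 TPM in both controls, Epha2 passed the TPM filter through the injured groups alone, though it was also called without that filter. Epha4, the EphA receptor best known from scar astrocytes and corticospinal axons, counted 57.5 and 30.0 CPM in the controls and 49.4 to 69.8 CPM in injured mice, with changes of 0.39 ± 0.23 (SE, adjusted p = 0.230) and 0.47 ± 0.22 (SE, adjusted p = 0.114).

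Only 1 of 5 EphB receptors passed the test, in SCI + Atorvastatin alone, where 38.9% of all genes passed. Ephb3 (chr16:21204755-21223305) counted 15.1 and 21.0 CPM in the controls, 4.58 to 15.8 (median 7.21) in SCI + Vehicle and 6.36 to 12.3 (median 8.002) in SCI + Atorvastatin mice. A single SCI + Vehicle mouse reached into the control range and no SCI + Atorvastatin mouse did. It was a DEG in SCI + Atorvastatin at -1.001 ± 0.35 (SE, adjusted p = 0.0421), a call lost without replicate 2, 4, 5, 6 or 7 of that group, without Uninjured Control replicate 2, without the TPM filter and with the filter on every condition, and not in SCI + Vehicle at -1.18 ± 0.48 (SE, adjusted p = 0.0875). Ephb1, the most abundant EphB receptor, counted 67.5 and 79.5 CPM in the controls and 61.6 to 95.05 CPM in injured mice.

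None of the 3 Slit and 3 tested Robo genes was a DEG in either comparison by edgeR with both controls, beside 29.8% and 38.9% of all genes. Robo1 was called higher in both by limma on TPM. With 1 control left out, the calls of edgeR among these genes (Robo1, Robo4, Slit1 and Slit3) depended on which control was kept. Slit3 counted 13.8 to 27.5 CPM in injured mice, all of them lower than the first control and higher than the second. Slit1 counted 92.1 and 31.8 CPM in the controls and 34.6 to 63.7 CPM in injured mice, all of them between the 2 controls. Slit2 had log2 fold changes of -0.05 ± 0.19 (interval of 2 SE, -0.42 to 0.32) in SCI + Vehicle and 0.04 ± 0.18 (interval, -0.31 to 0.39) in SCI + Atorvastatin, and Slit3, with controls at 29.4 and 7.97 CPM, had -0.10 ± 0.42 and -0.0039 ± 0.43 (SE). Robo1 stood at 160.1 and 97.0 CPM in the controls and 129 to 163 CPM in injured mice, a change of 0.12 ± 0.16 and 0.21 ± 0.17 (SE). Robo2, its neuronal partner, had 0.02 ± 0.14 and -0.0073 ± 0.16 (SE), and intervals of 2 SE from -0.25 to 0.29 and from -0.32 to 0.31. The endothelial Robo4 had 81 counts in 1 control and 0 in the other, and its change could not be placed within 1 log2 unit (SE 1.43 and 1.19).

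**Figure D3:**
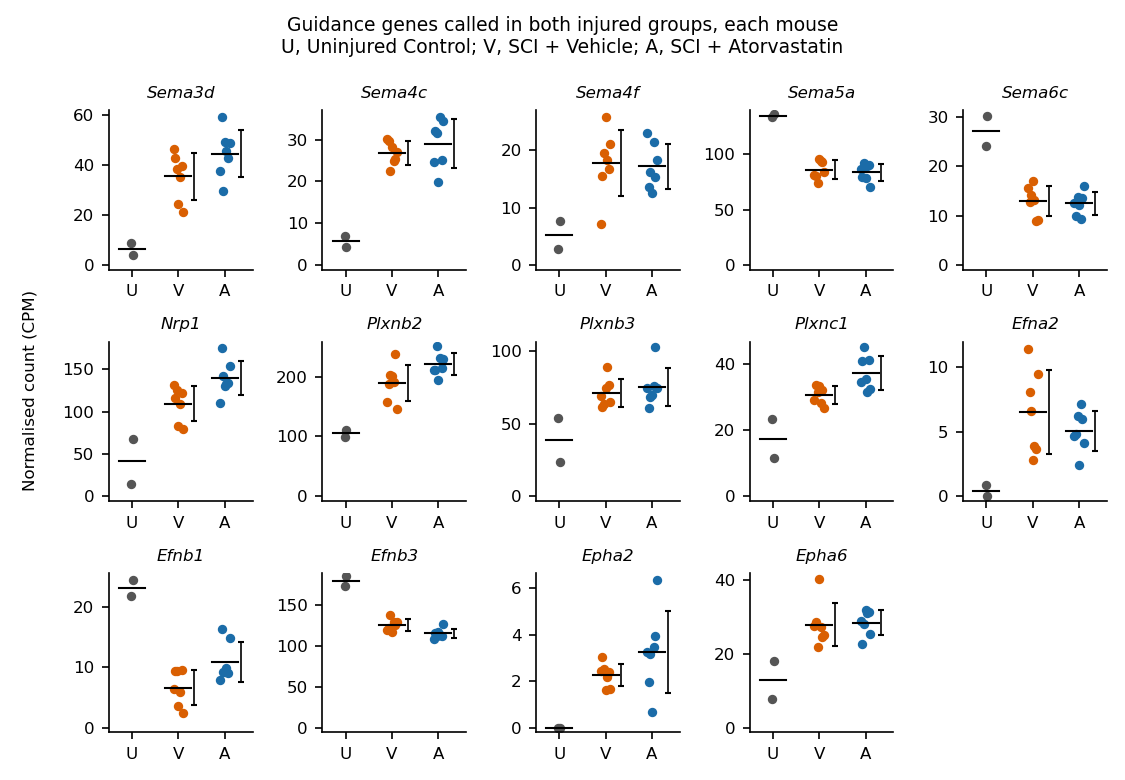
Normalised count (CPM) of the 14 guidance genes that were DEGs in both comparisons with Uninjured Control; each point is a mouse, U the 2 controls, V the 7 SCI + Vehicle and A the 7 SCI + Atorvastatin mice, with a line at the mean and a bar of 1 SD for the injured groups. Each panel starts at 0 apart from a small margin. Injured points lie above the controls in 10 panels, with an overlap in SCI + Vehicle for Sema4f, and below them for Efnb1, Efnb3, Sema5a and Sema6c.

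Genes of the cell types that carry these cues moved in the same comparisons. Of all genes tested, 19.9% and 24.9% were upregulated and 9.91% and 14.0% downregulated in SCI + Vehicle and SCI + Atorvastatin. Of 9 microglia or macrophage markers 6 were upregulated in SCI + Vehicle and 7 in SCI + Atorvastatin, with sums of 145 and 221 TPM in the controls, 972 to 1451 TPM in SCI + Vehicle and 1378 to 1698 TPM in SCI + Atorvastatin mice, and P2ry12, Tmem119, Cd68 and Ptprc were at 0 in a control. Astrocyte markers rose in 5 of 8 in both comparisons, with 1 (S100b) lower in SCI + Atorvastatin and 3 of 8 below 0 in each, and their sum went from 3482 and 4953 TPM in the controls to between 8533 and 10761 TPM. Neuronal markers fell in 7 of 12 and 10 of 12. Apart from these cell types, liver genes were lower in 10 of 10, with sums of 1333 and 7562 TPM in the 2 control libraries and 1.80 to 16.0 TPM in injured ones. Fibroblast markers were upregulated in 0 of 6 in SCI + Vehicle and 5 of 6 in SCI + Atorvastatin mice. All 6 lay above 0 in both comparisons, with median log2 fold changes of 1.35 and 2.55. Of 7 endothelial markers 0 and 1 were upregulated, and of 6 pericyte or smooth muscle markers 1 and 3, with sums of the latter at 43.1 and 73.9 TPM in the controls and 107 to 221 TPM after injury. Oligodendrocyte markers fell in 1 and 3 of 8, precursor markers rose in 2 and 3 of 6 with 1 lower in SCI + Atorvastatin, Schwann cell markers fell in 0 and 2 of 6 and ependymal markers rose in 1 and 2 of 5. The part of these cell types in the changes of the guidance genes was not tested.

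Many guidance genes, like the genes of the whole table, differed between the control mice themselves. The median absolute log2 difference between the 2 controls was 0.75 over the guidance genes, against 0.16 to 0.42 between pairs of injured mice of a group, and over all genes tested it was 0.66 against 0.20 to 0.40. Counts were 0 in 1 control for 8 tested genes, Efna1, Efna2, Epha1, Epha3, Epha8, Ephb4, Robo4 and Sema3g, and in both for Epha2, or 13.8% and 1.72% of the guidance genes beside 15.7% and 15.1% of all genes tested. Of the 49 others, 15 (30.6%) lay over 2-fold apart, beside 33.6% of all genes with counts in both, among them Nrp1, Sema3b, Sema3c, Sema3d, Epha6, Epha10, Plxnb3, Slit1 and Slit3. Restricted to genes with counts in both controls, 12 of 49 guidance genes were DEGs in SCI + Vehicle (25.8% of 11126 such genes) and 19 of 49 in SCI + Atorvastatin (36.0%). In some genes counts and TPM went apart: Epha1 had 380 and 0 counts but 0 and 9.20 TPM in the controls, and Robo3 had 363 counts and a TPM of 0 in the second control. Sema3f had 42 counts with a TPM of 0 in the first control.

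**Figure D4:**
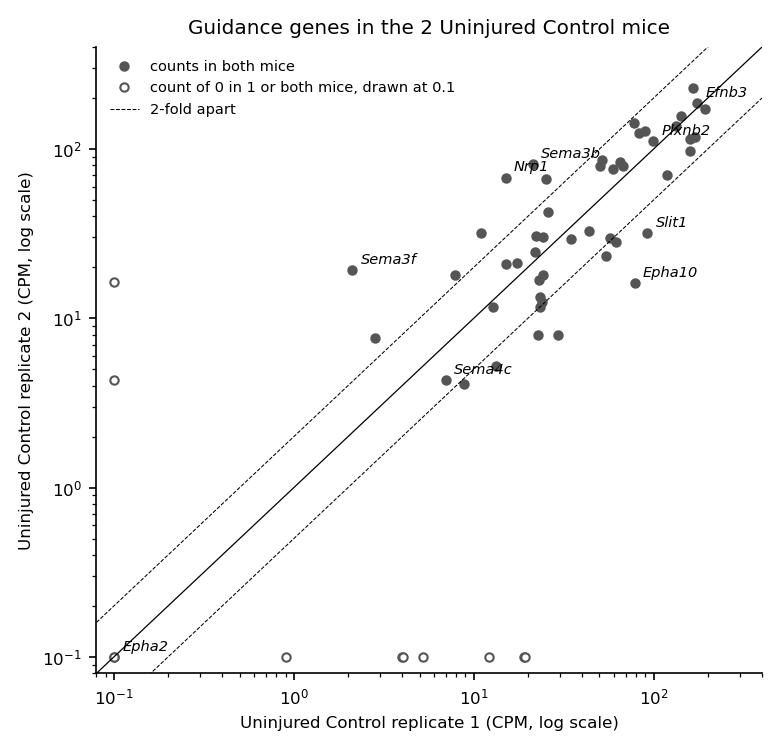
Normalised count (CPM, log scales) of the 60 guidance genes in Uninjured Control replicate 1 on the x axis and replicate 2 on the y axis; the solid line marks equal values, dashed lines a 2-fold difference, and open points, drawn at 0.1, a count of 0 in 1 or both mice. Nrp1, Sema3b and Sema3f lie above the dashed lines, Slit1 and Epha10 below, and Efnb3 and Plxnb2 near the solid line.

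The comparison of SCI + Atorvastatin with SCI + Vehicle asked what the drug changed in injured cords. By edgeR 0 of 58 guidance genes passed the threshold used for it, an unadjusted p below 0.001 with a log2 fold change beyond 0.322, which 17 of 16091 genes (0.106%) passed. The smallest adjusted p among the guidance genes was 0.680, also the smallest of the whole table. No guidance gene separated the 2 groups without overlap, as 14 genes (0.0870%) did. An unadjusted p below 0.05 was seen for 9 guidance genes (15.5%), beside 7.03% of all genes, 7 of them higher (4.02% of all genes) and 2 lower (3.01% of all genes). DESeq2, other filters and the voom fit also gave 0 past that threshold.

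On the receptor side 5 of those 9 genes were semaphorin receptors with higher counts in SCI + Atorvastatin. Nrp1 had the smallest p, 0.00648, with a log2 difference of 0.35 ± 0.12 (SE, adjusted p = 0.680), and 6 of 7 mice lay above the SCI + Vehicle median of 116 CPM. Nrp2 differed by 0.22 ± 0.08 (SE, unadjusted p = 0.0158), with 7 of 7 mice above the SCI + Vehicle median. Plxnc1 differed by 0.28 ± 0.10 (SE, unadjusted p = 0.0117) and Plxnb2 by 0.22 ± 0.09 (SE, unadjusted p = 0.0237), in 7 of 7 mice each. The p of Plxnb2 rose above 0.05 without SCI + Atorvastatin replicate 3 or SCI + Vehicle replicate 1 or 7. For Plxna2 the difference was 0.27 ± 0.10 (SE, unadjusted p = 0.0140), in 5 of 7 mice. Nrp1, Nrp2 and Plxnc1 rose above 0.05 with all 3 groups in 1 fit, and Nrp2 and Plxna2 under limma on TPM. The groups overlapped for all 5, and none of them held after adjustment over all genes by edgeR (adjusted p from 0.680 to 0.681).

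Ephrins and their receptors gave the other 4 genes. Efnb1 was higher by 0.71 ± 0.28 (SE, unadjusted p = 0.0179), at 7.83 to 16.4 CPM against 2.38 to 9.53 CPM in SCI + Vehicle and 21.8 and 24.5 CPM in the controls. It lost its p below 0.05 without SCI + Atorvastatin replicate 2. Epha3, a receptor of ephrin-A5, counted 2.65 to 11.0 CPM (median 6.55) in SCI + Vehicle and 5.10 to 22.2 CPM (median 9.75) in SCI + Atorvastatin mice, higher by 0.71 ± 0.31 (SE, unadjusted p = 0.0310). Without SCI + Atorvastatin replicate 2 or 7 or SCI + Vehicle replicate 4, 6 or 7 its p rose above 0.05, as it did with all 3 groups in 1 fit, limma on TPM and voom. Efna1 counted 3.28 to 8.41 CPM (median 5.33) in SCI + Vehicle and 2.99 to 4.63 CPM (median 3.25) in SCI + Atorvastatin mice, a difference of -0.70 ± 0.26 (SE, unadjusted p = 0.0141). Efna5 counted 13.6 to 22.1 CPM (median 14.8) and 9.58 to 16.0 CPM (median 13.2), a difference of -0.37 ± 0.16 (SE, unadjusted p = 0.0276), which rose above 0.05 without SCI + Atorvastatin replicate 3 or 4 or SCI + Vehicle replicate 4, 6 or 7. Both ephrin-A genes were lower in SCI + Atorvastatin with overlapping ranges, and their adjusted p were 0.680 and 0.690. Efna1 was above an unadjusted p of 0.05 with all 3 groups in 1 fit and under limma on both TPM scales, and Efna5 under limma.

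**Figure D5:**
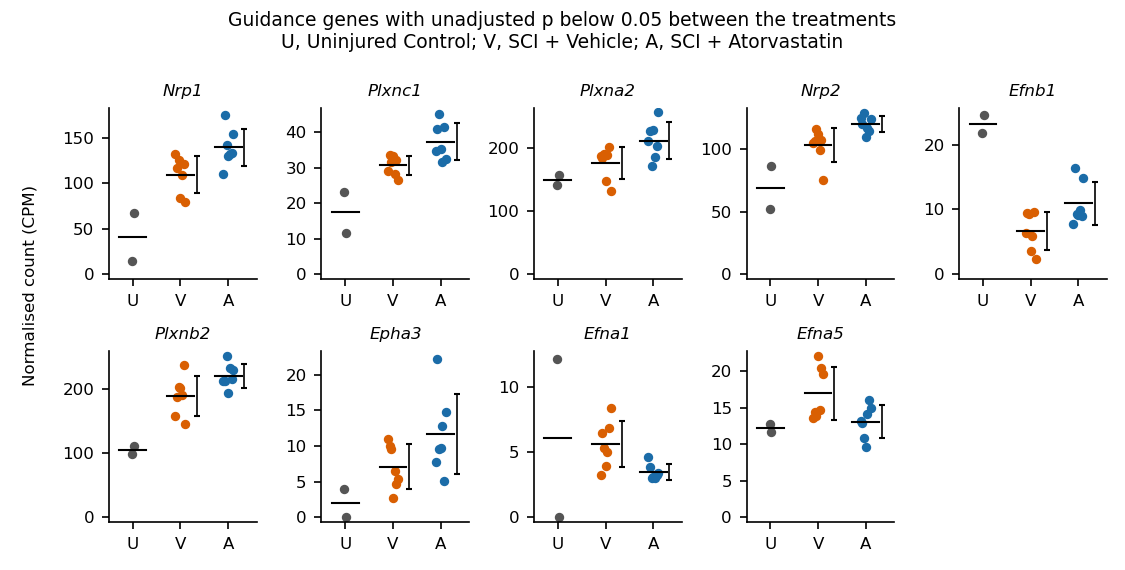
Normalised count (CPM) of the 9 guidance genes with an unadjusted p below 0.05 between SCI + Atorvastatin and SCI + Vehicle; each point is a mouse, U the 2 controls, V and A the 7 mice of each injured group, with a line at the mean and a bar of 1 SD for the injured groups. V and A overlap in every panel, with higher means in A for 7 genes and lower means for Efna1 and Efna5.

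Of the other 49 members, 17 had an interval of 2 SE between the treatments that lay wholly within the 25% limit. Among the narrow ones, Slit2 differed by 0.06 ± 0.09 (SE, interval of 2 SE from -0.12 to 0.24), Robo1 by 0.07 ± 0.07 (-0.06 to 0.21), Robo2 by -0.05 ± 0.08 (-0.20 to 0.10) and Sema4d by 0.0006 ± 0.10 (-0.19 to 0.19). The widest were those of Epha2, from -0.28 to 1.32, Epha1, from -0.68 to 0.92, and Robo4, from -0.97 to 0.58, which are low in counts. Sema3d, which was higher than in the controls in both groups, differed by 0.33 ± 0.16 (unadjusted p = 0.0582). Fibroblast markers differed in the same direction as the neuropilins: all 6 were above 0 in SCI + Atorvastatin relative to SCI + Vehicle, 5 with an unadjusted p below 0.05 and none past the threshold, with sums of 640 to 1388 TPM against 120 to 862 TPM. All 7 endothelial markers lay above 0 and all 12 neuronal markers below 0, with medians of 0.28 and -0.15 on the log2 scale, and all 9 microglia or macrophage markers lay above 0 with a median of 0.14. SCI + Vehicle replicate 7 had the lowest fibroblast sum and the highest neuronal sum, 10058 TPM, of the 14 injured mice, and it was also the lowest for Nrp2. Without it 7 guidance genes had an unadjusted p below 0.05, Efna1, Efnb1, Nrp1, Nrp2, Plxna2, Plxnc1 and Sema4g, beside 853 genes in all. The part of these cells in the differences was not tested.

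Downstream of the receptors, 44 genes of guidance signalling were listed, among them the CRMP proteins, GTPase regulators and actin-regulating kinases. In SCI + Vehicle vs. Uninjured Control 8 were upregulated and 8 downregulated, with a median log2 fold change of 0.0097, and in SCI + Atorvastatin 10 and 9, beside 19.9% and 9.91%, and 24.9% and 14.0%, of all genes. Upregulated were Fes, a kinase bound by plexin-A1, at 2.35 ± 0.44 and 2.23 ± 0.28 (SE), and Mical2, an actin oxidase, at 0.95 ± 0.19 and 0.95 ± 0.24 (SE), while Dpysl4 was also upregulated and is given no fold since it was at 0 TPM in a control. Pak1, a kinase downstream of Rac, fell by 0.53 and 0.60 on the log2 scale, and Gsk3b and Abl2 fell in both comparisons too. Co-receptors and shedding enzymes, 11 genes, had 3 and 4 upregulated and 1 downregulated in each. Adam17, which sheds guidance receptors, rose by 2.12 ± 0.26 (SE, adjusted p = 0.000311) and 2.40 ± 0.21 (SE, adjusted p = 3.29e-05), Itgb1, an integrin that binds Sema7a, by 0.84 ± 0.23 and 1.09 ± 0.17 (SE), and the proteoglycan Sdc3 fell by 0.52 and 0.56 on the log2 scale. Between SCI + Atorvastatin and SCI + Vehicle 0 of the 44 and 0 of the 11 passed the edgeR threshold. At an unadjusted p below 0.05 stood 5 and 2, beside 7.03% of all genes.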

How the data were processed

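Bulk RNA-seq libraries of 16 mouse spinal cords were analysed as deposited. Per the labels' processing notes and the methods, the authors checked reads with FastQC 0.12.1, trimmed them with Trimmomatic 0.38, aligned them to mm10 with STAR 2.5.4b and quantified them with RSEM 1.3.1. As deposited, 1 table holds counts without fractions for each gene symbol and another, also made by the authors, holds TPM; how the counts became whole is not given in the sources used here. Guidance genes were found by symbol, and the members, gene lists and tests were chosen with earlier results of these data known. Each pair of groups was fitted in edgeR 4.0.16 (R 4.3.3, quasi-likelihood test in legacy mode, TMM factors, library sizes over all genes), on the 16091 genes with a mean above 1 TPM in at least 1 condition, and p-values were adjusted over all of them. Named in full were members called against Uninjured Control and members with an unadjusted p below 0.05 between treatments; by values, the leading gene of each family and genes with few counts or with counts and TPM apart; and of other lists, up to 3 called genes per direction. Calls required a change of 25%, a log2 fold change of 0.322. The standard error is the log2 fold change over the root of the test statistic. Alternatives were DESeq2 1.42.0, limma 3.58.1 on log2(TPM + 1) and log2(TPM + 0.1), voom, filters, a joint fit, a replicate block and leaving out each mouse; edgeR without its legacy mode was added after the data were seen. Pairwise edgeR with TMM or DESeq2 size factors, DESeq2, limma on log2(TPM + 1) and voom were tested on simulated counts. The joint fit, the replicate block, limma on log2(TPM + 0.1) and edgeR without its legacy mode were not. Simulated controls had the spread of the injured mice, so the wider spread of the real controls was not covered. Positions are from GENCODE M21 (GRCm38), the build of mm10, and promoters from RefSeq (GRCm38.p6). Mice are biological replicates by their labels, and no pair of libraries of the same group agreed within counting error.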

Additional observations from a re-analysis of the deposited data

Results flagged for a closer look

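In 12 of 116 groups of 7 mice, 1 mouse stood away from the other 6 by Dixon's test at 95%, a test that flags about 1 in 20 groups by chance. High values were 72.3 CPM for Epha5 in SCI + Atorvastatin replicate 1 (others 49.8 to 58.8), 219.5 CPM for Plxnb1 (others 168 to 181) and 102 CPM for Plxnb3 (others 60.6 to 75.8) in replicate 6. In SCI + Vehicle replicate 4, the library with the fewest counts, Epha6 reached 40.3 CPM (others 21.9 to 28.8), Robo1 159 CPM (others 134 to 142) and Sema5b 22.5 CPM (others 9.78 to 13.99). Ephb3 at 15.8 CPM (others 4.58 to 8.98) and Sema3g at 10.3 CPM (others 4.05 to 4.90) were high in SCI + Vehicle replicate 1, and Epha7 at 31.2 CPM (others 18.0 to 22.9) in replicate 2. Low values were 75.3 CPM for Nrp2 in SCI + Vehicle replicate 7 (others 98.7 to 116), 25.9 CPM for Plxnd1 in SCI + Atorvastatin replicate 4 (others 43.1 to 54.8) and 5.24 CPM for Sema5b in SCI + Atorvastatin replicate 2 (others 11.0 to 13.4).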

How the results depend on the processing

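Among members called against Uninjured Control or with an unadjusted p below 0.05 between the treatments, none changed direction under any alternative. The direction of the other members under the alternatives was not followed. In SCI + Vehicle vs. Uninjured Control the 10 upregulated and 4 downregulated guidance genes became 0 and 0 under voom with a weight for each group and under the replicate block, and 4 and 2 at an adjusted p below 0.01. In SCI + Atorvastatin vs. Uninjured Control the 14 and 7 became 0 and 0 under both of those fits and 7 and 4 at 0.01. With voom 7 and 8 members had an unadjusted p below 0.05, beside 1375 and 1795 of all 16091 genes. With the block 6 and 6 members did, beside 1665 and 1377 of all genes. The block sets each control against only the injured mouse with the same replicate number, so most injured mice do not enter the difference. With so few mice left, a loss of all calls under the block says little about the genes. Leaving out a mouse gave 4 to 22 and 4 to 9 in SCI + Vehicle, and 12 to 28 and 6 to 12 in SCI + Atorvastatin. Where 1 control was left, it was assumed to vary like the injured mice. Efnb1, Epha2, Plxnb2, Sema3d, Sema4c and Sema6c lost their call under voom and the block alone in SCI + Vehicle, as 14 members did in SCI + Atorvastatin.

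The median of the guidance genes against Uninjured Control, 0.15 in SCI + Vehicle, was 0.35 on log2(TPM + 1) and 0.39 on log2(TPM + 0.1), and 0.13 to 0.36 without a mouse. In SCI + Atorvastatin, 0.23 became 0.42 and 0.45 on those scales, 0.11 with at least 10 counts in every mouse, 0.36 with voom, 0.31 with the replicate block, and 0.16 to 0.48 without a mouse. Between the treatments it was 0.01 to 0.07 without a mouse.

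Between the treatments a threshold of unadjusted p below 0.05 with no limit on the fold gave 7 and 2 in place of 0 and 0, and leaving out a mouse gave 0. The 7 higher genes at p below 0.05 became 3 with all 3 groups in 1 fit and 5 to 9 without a mouse. The 2 lower became 5 where each of the 3 conditions had to pass 1 TPM, 1 with at least 10 counts in every mouse, 1 with limma on either TPM scale (Ephb6, in place of Efna1 and Efna5), and 1 to 7 without a mouse, with 7 without SCI + Vehicle replicate 1 and 4 without SCI + Atorvastatin replicate 1. Same-numbered mice of the 2 injured groups correlated from -0.21 to 0.14, with 1 of 7 pairs over 0.1 and 0 of 7 best with its own number, so the numbers do not pair them. The 2 controls limit every comparison with them. The cause of these changes was not tested.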
